A study of Mus musculus with 12 samples.

Results

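The genes described here are the mouse matrix metalloproteinases (MMPs), the ADAMTS proteases and the tissue inhibitors of metalloproteinases (TIMPs). They were chosen by name: every symbol made of Mmp and a digit, of Adamts and digits only, or Timp1 to Timp4. The rule found 46 of the 24421 gene symbols counted, of which 23 are MMPs, 19 are ADAMTS genes and 4 are TIMPs. After a filter on low counts 39 of the 46 were tested, namely 16 MMPs, 19 ADAMTS genes and 4 TIMPs, and the other 7 MMPs had at most 36 counts in any library.

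Bulk RNA was sequenced from 12 mouse libraries in 4 groups of 3. The tumour groups were whole brain tumours that formed after RCAS virus, an avian retroviral vector that enters only cells carrying its receptor, was injected inside the skull, and they were snap frozen before total RNA was taken. The virus carried either YAP1-MAMLD1-dR3R1 or one of the fusions YAP1-FAM118B and YAP1-TFE3, and each of these joins the transcriptional coactivator YAP1 to a partner gene. The remaining group was naive, meaning normal cortex of mice without injection. The labels explain neither the suffix dR3R1 nor the strain, the age, the promoter or the cells that the virus could enter. Nor do they state that each library is a different mouse, so the p-values reflect only how far these libraries spread, which may be technical. The labelled tissue of the naive libraries is a brain tumour, and the extraction text speaks of cultured cells. Both go against the other labels, and summed neuronal markers were 523 to 1291 CPM in YAP1-MAMLD1-dR3R1 tumours, 3586 to 5417 CPM in YAP1-FAM118B tumours and 97 to 965 CPM in YAP1-TFE3 tumours, against 6304 to 9458 CPM in naive cortex. The series asks which functions different YAP1 fusions share.

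MMPs are zinc endopeptidases that are made as inactive precursors, either secreted or held at the cell surface, and together they cut most proteins of the extracellular matrix. ADAMTS proteases are secreted relatives with thrombospondin repeats that cut proteoglycans, trim procollagens or cleave von Willebrand factor. TIMPs bind the active site of MMPs, and Timp3 also blocks several ADAM and ADAMTS proteases. In the brain these enzymes act on hyaluronan-binding proteoglycans, on basement membranes of vessels and on synaptic proteins, and in tumours they are studied for invasion and for the release of growth factors.

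Total counts ran between 19850220 and 24760814 per library, so that 3 counts corresponded to 0.117 to 0.145 CPM, here counts per 1000000 after scaling. Within a group the libraries' log2 CPM correlated at 0.905 to 0.985 across genes, which are not independent replicates. Naive replicate 2 and YAP1-FAM118B replicate 2 held counts of both Xist (25.6 and 162 CPM) and the Y-linked Ddx3y (49.3 and 29.9 CPM), which no other library did above 0.434 CPM for the lesser of the pair. Counts of calls are therefore also given without both of these libraries. All 3 YAP1-TFE3 libraries held Ddx3y (69.8, 68.9 and 87.8 CPM) with Xist at 0.434 CPM or less. Each other group had a library with Xist (305 to 493 CPM) and Ddx3y at 0.044 CPM or less. Sex, as read from these genes, was thus not balanced between groups, and it was not in the fit. Below, values of a group are listed for replicates 1, 2 and 3 in that order. A gene rose or fell where edgeR's quasi-likelihood test gave an adjusted p under 0.05 over the 16364 genes tested, and differences are log2 fold changes ± SE with n = 3 libraries a group. In bulk RNA, fewer cells of a type and less RNA per cell cannot be told apart.

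Of the MMP genes, 10 lie together on chromosome 9, at chr9:7272514-7699585 in GRCm38: Mmp13, Mmp12, Mmp1b, Mmp3, Mmp1a, Mmp10, Mmp8, Mmp27, Mmp20 and Mmp7. The endogenous Yap1 gene lies beyond its end, at chr9:7931999-8004638. Mmp3, Mmp10, Mmp12 and Mmp13 of this cluster had at most 3 counts each in the 3 naive libraries together. Mmp3, Mmp10 and Mmp12 rose in every tumour group, and Mmp13 in YAP1-FAM118B and YAP1-TFE3 tumours. The 120 bases before the start sites of these genes are therefore shown, from RefSeq on GRCm38.p6. Capitals mark TGANTCA, the motif of the AP-1 factors, which reads the same on both strands. All run 5′ to 3′ on the plus strand. Mmp12 has 2 listed starts. Timp1, on chromosome X, is shown because it rose in every tumour group and, like the other members searched outside the cluster, had no such motif in the window searched.
Mmp3, chr9:7445702-7445821: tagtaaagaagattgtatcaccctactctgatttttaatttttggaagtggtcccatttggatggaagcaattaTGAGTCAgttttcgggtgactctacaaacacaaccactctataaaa
Mmp10, chr9:7502222-7502341: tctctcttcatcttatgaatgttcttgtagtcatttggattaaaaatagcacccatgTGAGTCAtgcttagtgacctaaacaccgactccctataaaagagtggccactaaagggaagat
Mmp12 (upstream start), chr9:7344277-7344396: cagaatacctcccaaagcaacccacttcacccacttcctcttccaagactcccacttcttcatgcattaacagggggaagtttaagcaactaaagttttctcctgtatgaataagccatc
Mmp12 (downstream start), chr9:7347254-7347373: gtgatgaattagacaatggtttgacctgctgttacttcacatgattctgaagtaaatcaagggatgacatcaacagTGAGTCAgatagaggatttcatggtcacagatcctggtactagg
Mmp13, chr9:7272394-7272513: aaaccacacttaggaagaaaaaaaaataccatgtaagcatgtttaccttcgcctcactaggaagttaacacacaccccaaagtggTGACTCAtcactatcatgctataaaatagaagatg
Timp1, chrX:20870046-20870165: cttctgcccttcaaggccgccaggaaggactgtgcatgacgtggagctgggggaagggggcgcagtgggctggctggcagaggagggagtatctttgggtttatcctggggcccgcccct

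RefSeq promoters were found for 32 of the 46 members, 35 windows in all, and each was searched on both strands over the 250 bases before the start. Not searched, for lack of a window, were Mmp2, Mmp9, Mmp16, Mmp17, Mmp19, Adamts4, Adamts5, Adamts6, Adamts7, Adamts8, Adamts10, Adamts15, Adamts16 and Adamts19. All of these lie outside the cluster, so the counts below cannot speak for them. TGANTCA lay in 8 of the 12 windows of the chromosome 9 cluster and in 0 of the 23 windows of other members, beside 6.75% of all 32851 promoters. The 8 were those of Mmp3, Mmp10, Mmp13, Mmp1a, Mmp1b, Mmp20, the downstream start of Mmp12 and 1 start of Mmp7. TATAAA, the letters of the TATA box, lay at any position in 7 of the 12 cluster windows and 2 of the 23 others, beside 12.4% of all promoters. GGAATG, the motif of the TEAD factors that YAP1 binds, was in 2 of the 35 windows, beside 12.6% of all promoters. CACGTG, the E-box bound by TFE3, was likewise in 2 of the 35, beside 6.02%. These are matches of letters in a fixed window, and TGANTCA and TATAAA do not overlap in the printed sequences. The genes that share the motif did not share a level: Mmp1a, Mmp1b and Mmp20 had at most 1 count in any library and Mmp7 at most 10. Mmp3, Mmp10 and Mmp12 rose in every tumour group, and Mmp13 in YAP1-FAM118B and YAP1-TFE3 tumours only.

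More of the tested members rose than fell in each tumour group, and the leading MMP genes differed between fusions. In YAP1-MAMLD1-dR3R1 tumours 24 of the 39 rose and 5 fell, where 34.4% of all genes tested rose and 28.8% fell. In YAP1-FAM118B tumours 24 rose and 2 fell, beside 21.3% and 8.45% of all genes. In YAP1-TFE3 tumours 19 rose and 9 fell, beside 40.6% and 30% of all genes, so the rising share there was close to that of genes in general. The median log2 fold change over the 39 was 2.85 in YAP1-MAMLD1-dR3R1 tumours, 2.72 in YAP1-FAM118B tumours and 1.39 in YAP1-TFE3 tumours, beside medians of 0.0604, -0.0463 and 0.226 over all genes. With Mmp10 and Adamts19, which had no count in a group, set at the bounds given below, the first of these medians is 2.49 and the others do not move. The 3 contrasts share the naive libraries. All YAP1-MAMLD1-dR3R1 libraries lay above all naive libraries for 26 of the 39 and below them for 6, beside 38% and 34.9% of all genes. The same held in YAP1-FAM118B tumours for 24 above and 4 below, beside 29.7% and 27.1%, and in YAP1-TFE3 tumours for 20 above and 12 below, beside 42.5% and 33.2%. In every tumour group 17 of the 39 rose, beside 18.6% of all genes: Mmp2, Mmp3, Mmp10, Mmp11, Mmp12, Mmp14, Mmp19, Mmp23, Mmp25, Adamts1, Adamts5, Adamts7, Adamts9, Adamts10, Adamts14, Timp1 and Timp3. Mmp24 alone fell in all 3, beside 6.07% of all genes. Without the 2 libraries that held Xist and Ddx3y counts, 21 rose and 4 fell in YAP1-MAMLD1-dR3R1, 24 and 3 in YAP1-FAM118B, and 19 and 11 in YAP1-TFE3 tumours.

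Between fusions, 8 of the 39 were higher and 6 lower in YAP1-FAM118B than in YAP1-MAMLD1-dR3R1 tumours, beside 12.7% and 13.5% of all genes. In YAP1-TFE3 tumours 3 were higher and 16 lower than in YAP1-MAMLD1-dR3R1 tumours, beside 22.6% and 16.9%. Against YAP1-FAM118B tumours 4 were higher and 17 lower in YAP1-TFE3 tumours, beside 28% and 23.7%. The median log2 fold changes were 0.135, -0.991 and -1.27, beside -0.0499, -0.0489 and 0.0821 over all genes. Libraries lay wholly above those of the other fusion for 8 members and wholly below for 10 in YAP1-FAM118B against YAP1-MAMLD1-dR3R1, beside 23.7% and 25% of all genes. These numbers were 3 and 18 in YAP1-TFE3 against YAP1-MAMLD1-dR3R1, beside 27% and 21.1%, and 4 and 19 in YAP1-TFE3 against YAP1-FAM118B, beside 31.4% and 26.9%. Leaving out the same 2 libraries gave 4 higher and 2 lower for YAP1-FAM118B against YAP1-MAMLD1-dR3R1, 3 and 15 for YAP1-TFE3 against YAP1-MAMLD1-dR3R1, and 1 and 17 for YAP1-TFE3 against YAP1-FAM118B. Counts also moved with other libraries: for YAP1-FAM118B against YAP1-MAMLD1-dR3R1 the lower calls numbered 1 without YAP1-FAM118B replicate 1, 2 without YAP1-MAMLD1-dR3R1 replicate 3 and 3 without YAP1-FAM118B replicate 2, and the higher calls 4 without YAP1-MAMLD1-dR3R1 replicate 2 or YAP1-FAM118B replicate 1 or 2. The higher calls of YAP1-TFE3 against YAP1-MAMLD1-dR3R1 numbered 1 without YAP1-MAMLD1-dR3R1 replicate 2. Those of YAP1-TFE3 against YAP1-FAM118B numbered 1 without YAP1-FAM118B replicate 1 or YAP1-TFE3 replicate 1, and 2 without naive replicate 1, YAP1-MAMLD1-dR3R1 replicate 2, YAP1-FAM118B replicate 3 or YAP1-TFE3 replicate 2 or 3. The lower calls against naive numbered 3 in YAP1-MAMLD1-dR3R1 without YAP1-MAMLD1-dR3R1 replicate 1 or 2. In YAP1-FAM118B they numbered 1 without naive replicate 1 or 3, and 0 in edgeR without naive replicate 2 or YAP1-FAM118B replicate 1 or 3, where 3, 2 and 2 had an unadjusted p under 0.05 and DESeq2 called 3 on all libraries.

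**Figure D1:**
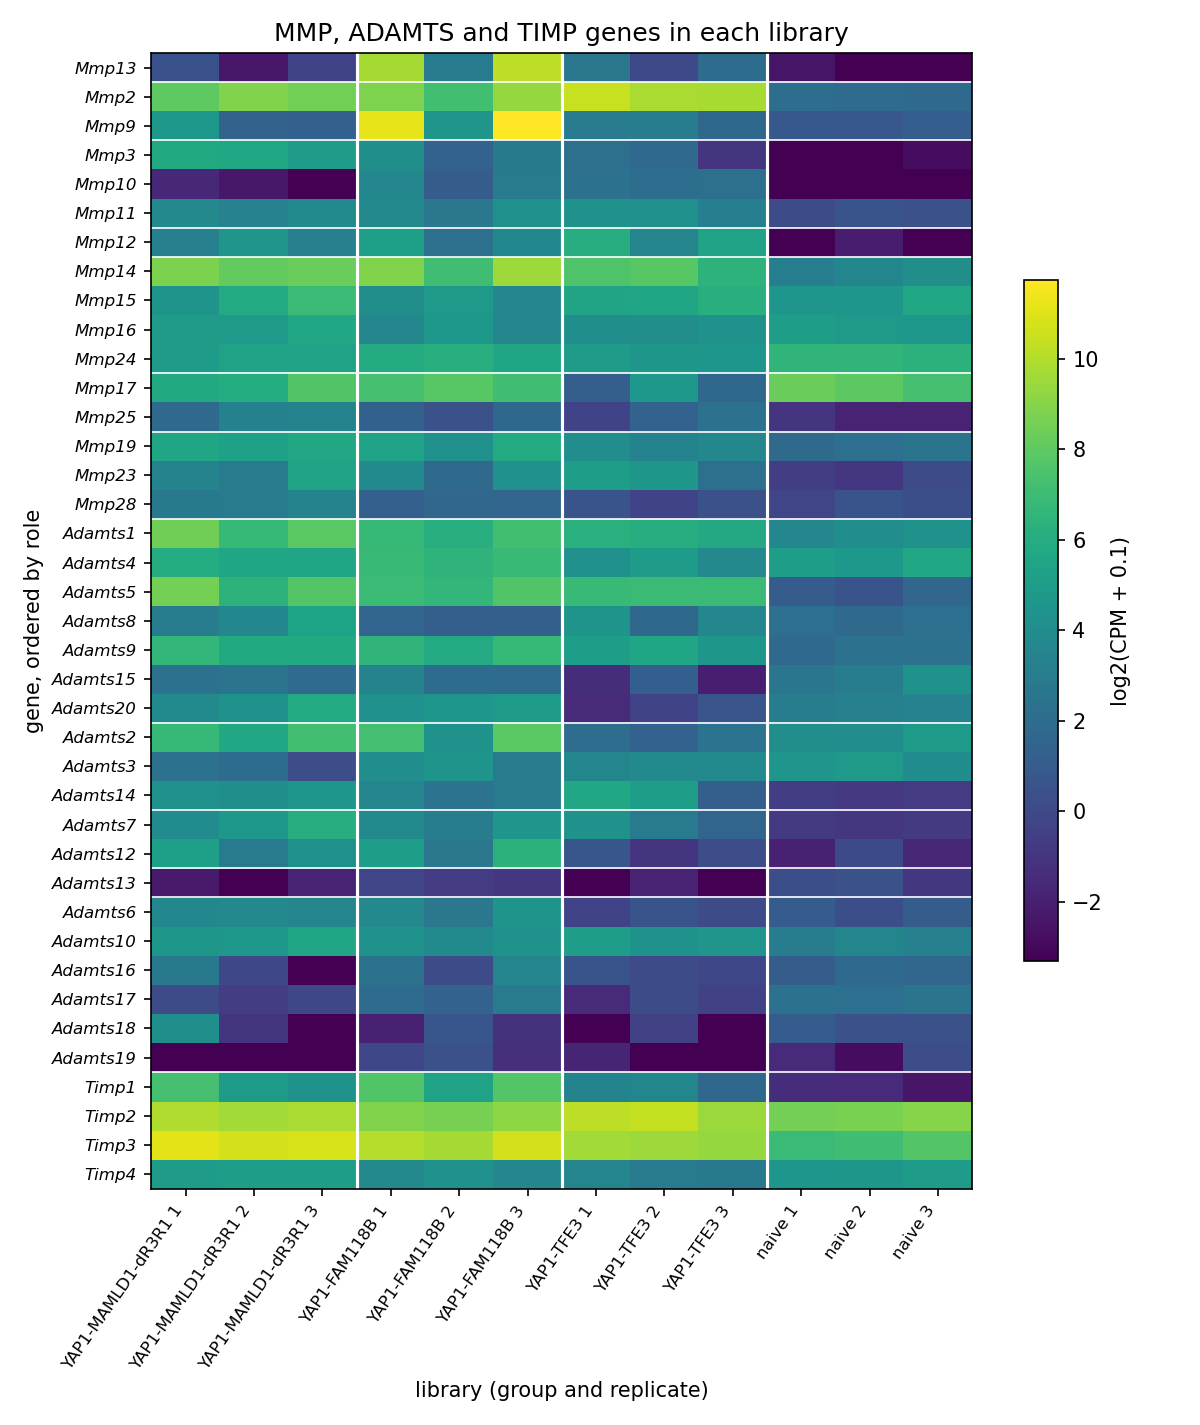
Levels of the 39 tested members in each of the 12 libraries, as log2(CPM + 0.1) on the colour scale, with genes ordered by role and libraries by group and replicate. Mmp2 is high in every tumour library, while Mmp9 stands at 2280.3, 23.3 and 3426 CPM in the 3 YAP1-FAM118B libraries and at 25.8 CPM or less elsewhere.

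Divided by exon length, the make-up of the MMP transcripts differed between groups. The summed level of all 23 MMPs was 239.1, 272.8 and 294 CPM per kb in YAP1-MAMLD1-dR3R1 tumours, 1266, 145.7 and 1816 CPM per kb in YAP1-FAM118B tumours and 519.2, 360.3 and 314.8 CPM per kb in YAP1-TFE3 tumours, against 80.69, 71.6 and 61.53 CPM per kb in naive cortex. Mmp17 held 39.2 to 58.9% of the naive sum. In YAP1-MAMLD1-dR3R1 tumours Mmp2 held 32.1 to 50.8% and Mmp14 a further 17.1 to 30.5%. Mmp9 and Mmp13 together held 76.1% and 78.2% in YAP1-FAM118B replicates 1 and 3, but 6.48% in replicate 2, where Mmp2 held 29.2% and Mmp17 23.1%. In YAP1-TFE3 tumours Mmp2 held 75.5 to 82.1%. The lengths are exon unions of GENCODE M21 on GRCm38, which need not be the annotation the authors counted on.

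Mmp2, gelatinase A, cuts denatured collagen and basement membrane collagen and is activated at the cell surface by Mmp14 with the help of Timp2. It stood at 259, 467 and 375 CPM in YAP1-MAMLD1-dR3R1 tumours, 457, 144 and 650.0 CPM in YAP1-FAM118B tumours and 1423, 917 and 871 CPM in YAP1-TFE3 tumours, against 4.27, 3.73 and 3.39 CPM in naive cortex. All tumour libraries lay far above all naive libraries, and all YAP1-TFE3 libraries lay above those of the other fusions. Mmp2 rose in YAP1-MAMLD1-dR3R1 (log2 fold change 6.59 ± 0.58, adjusted p = 1.68e-05), YAP1-FAM118B (6.78 ± 0.58, adjusted p = 4.09e-05) and YAP1-TFE3 tumours (8.14 ± 0.62, adjusted p = 3.78e-06). The higher level in YAP1-TFE3 tumours was called against YAP1-MAMLD1-dR3R1 (1.54 ± 0.46, adjusted p = 0.0235) and YAP1-FAM118B tumours (1.36 ± 0.46, adjusted p = 0.0305). The call against YAP1-MAMLD1-dR3R1 ended without YAP1-MAMLD1-dR3R1 replicate 1, 2 or 3, YAP1-TFE3 replicate 1 or 2 or naive replicate 1 (adjusted p up to 0.121), and the call against YAP1-FAM118B ended without YAP1-MAMLD1-dR3R1 replicate 2 or 3, YAP1-FAM118B replicate 1, YAP1-TFE3 replicate 1, 2 or 3 or naive replicate 1 (adjusted p up to 0.21). The summed level of 8 pericyte and smooth muscle markers was 428 to 1147 CPM in YAP1-MAMLD1-dR3R1 tumours, 701 to 1164 CPM in YAP1-FAM118B tumours and 2676 to 5335 CPM in YAP1-TFE3 tumours, against 112 to 133 CPM in naive cortex. Acta2, smooth muscle actin, made up most of the sum in YAP1-TFE3 tumours. Without it, as chosen after the values were seen, the sum was 369.8, 405 and 599 CPM in YAP1-MAMLD1-dR3R1 tumours, 457, 268 and 637 CPM in YAP1-FAM118B tumours and 679, 609 and 426 CPM in YAP1-TFE3 tumours, against 101, 114 and 118 CPM in naive cortex. In YAP1-TFE3 tumours 1 of the 8 was higher and 1 lower than in YAP1-MAMLD1-dR3R1 tumours, beside 22.6% and 16.9% of all genes. Against YAP1-FAM118B tumours 1 was higher and 2 lower, beside 28% and 23.7%. All 8 markers were detected in every group, and their part in the Mmp2 result was not tested.

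Mmp14, the membrane-type enzyme MT1-MMP that activates the Mmp2 precursor, had 434, 279 and 316 CPM in YAP1-MAMLD1-dR3R1 tumours, 471, 141 and 749 CPM in YAP1-FAM118B tumours and 195, 228 and 86.2 CPM in YAP1-TFE3 tumours, against 8.54, 12 and 17.2 CPM in naive cortex. Its tumour and naive libraries did not overlap, and the YAP1-TFE3 libraries lay below those of YAP1-MAMLD1-dR3R1, while those of YAP1-FAM118B overlapped both. Mmp14 rose in YAP1-MAMLD1-dR3R1 (log2 fold change 4.77 ± 0.64, adjusted p = 0.00015), YAP1-FAM118B (5.17 ± 0.65, adjusted p = 0.000304) and YAP1-TFE3 tumours (3.75 ± 0.61, adjusted p = 0.00036), and no pair of fusions passed the test.

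Mmp9, gelatinase B, is made in quantity by osteoclasts and also by neutrophils. Mmp13, a collagenase that cuts fibrillar collagen, is made mainly by other cells of bone. Mmp9 stood at 25.8, 2.71 and 2.39 CPM in YAP1-MAMLD1-dR3R1 tumours, 2280.3, 23.3 and 3426 CPM in YAP1-FAM118B tumours and 7.48, 8.42 and 3.34 CPM in YAP1-TFE3 tumours, against 1.68, 1.63 and 2.2 CPM in naive cortex. YAP1-FAM118B replicates 1 and 3 lay far above YAP1-FAM118B replicate 2, whose level was close to that of YAP1-MAMLD1-dR3R1 replicate 1. Mmp9 rose in YAP1-FAM118B tumours (log2 fold change 10.02 ± 1.86, adjusted p = 0.00291), where it was also higher than in YAP1-MAMLD1-dR3R1 tumours (7.53 ± 1.67, adjusted p = 0.0137). In YAP1-TFE3 tumours it was lower than in YAP1-FAM118B tumours (-8.22 ± 1.72, adjusted p = 0.00316), and it did not pass the test against naive in YAP1-MAMLD1-dR3R1 or YAP1-TFE3 tumours (2.49 ± 1.37 and 1.80 ± 1.35). The higher level in YAP1-FAM118B than in YAP1-MAMLD1-dR3R1 ended without YAP1-MAMLD1-dR3R1 replicate 2 (adjusted p = 0.0533).

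Mmp13 followed the same libraries, with 1.28, 0.0967 and 0.71 CPM in YAP1-MAMLD1-dR3R1 tumours, 854, 7.64 and 1209 CPM in YAP1-FAM118B tumours and 6.17, 0.887 and 3.85 CPM in YAP1-TFE3 tumours, against 0.0821, 0 and 0 CPM in naive cortex. The 3 naive libraries held 2 counts in all. Here and below, a ratio to naive compares the summed counts of a group over its summed library sizes. This ratio was 23960.2 (95% counting interval 6632 to 197853) in YAP1-FAM118B and 126 (95% counting interval 34.6 to 1050.3) in YAP1-TFE3 tumours. Mmp13 rose in both (adjusted p = 0.00126 and 0.0169), and the call in YAP1-TFE3 tumours ended without YAP1-TFE3 replicate 1 or naive replicate 1, 2 or 3 (adjusted p up to 0.0563). Mmp13 was higher in YAP1-FAM118B than in YAP1-MAMLD1-dR3R1 tumours (log2 fold change 9.91 ± 1.80, adjusted p = 0.00799) and lower in YAP1-TFE3 than in YAP1-FAM118B tumours (-7.57 ± 1.61, adjusted p = 0.00349).

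Osteoclast genes were high in the same libraries of YAP1-FAM118B tumours as Mmp9 and Mmp13. Acp5, the osteoclast acid phosphatase that resists tartrate, had 55.7, 27.1 and 18.8 CPM in YAP1-MAMLD1-dR3R1 tumours, 2056, 22.8 and 2745 CPM in YAP1-FAM118B tumours and 14.6, 9.89 and 32.4 CPM in YAP1-TFE3 tumours, against 0.369, 0.251 and 0.704 CPM in naive cortex. Ctsk, the collagen-cutting cathepsin K, had 26.1, 4.59 and 6.61 CPM in YAP1-MAMLD1-dR3R1 tumours, 2138, 22.3 and 3699 CPM in YAP1-FAM118B tumours and 10.9, 1.68 and 2 CPM in YAP1-TFE3 tumours, against 4.56, 5.28 and 3.34 CPM in naive cortex. The 8 osteoclast markers summed to 4503, 67.3 and 6964 CPM in YAP1-FAM118B tumours, 159, 121 and 103 CPM in YAP1-MAMLD1-dR3R1 tumours and 130.3, 239 and 104 CPM in YAP1-TFE3 tumours, against 16.8, 16.1 and 23.5 CPM in naive cortex. Each of the 8 was detected in every group. Calcr, the calcitonin receptor, did not follow: it had 1.6, 0.168 and 7.94 CPM in YAP1-FAM118B tumours, against 6.16, 3.06 and 12.7 CPM in naive cortex. Atp6v0d2 had 99.5, 1.6 and 184 CPM in YAP1-FAM118B but also 71.4, 189 and 25.2 CPM in YAP1-TFE3 tumours. Dcstamp had 39.4, 1.55 and 56.3 CPM in YAP1-FAM118B and 21, 29.6 and 9.22 CPM in YAP1-MAMLD1-dR3R1 tumours. Of the 8, 5 were higher in YAP1-FAM118B than in YAP1-MAMLD1-dR3R1 tumours, beside 12.7% of all genes. In YAP1-TFE3 tumours 5 were lower than in YAP1-FAM118B tumours, beside 23.7%. Markers of fibroblasts and meninges, which are also bone matrix genes in part, summed to 14224, 3628 and 18400.3 CPM in YAP1-FAM118B tumours, against 844, 842 and 828 CPM in naive cortex. The part of these cells in the Mmp9 and Mmp13 results was not tested. Neutrophil markers summed to 4.27, 9.47 and 2.48 CPM in YAP1-MAMLD1-dR3R1 tumours, 6.37, 3.82 and 1.38 CPM in YAP1-FAM118B tumours and 2.75, 6.43 and 4.09 CPM in YAP1-TFE3 tumours, against 0.657, 1.63 and 0.572 CPM in naive cortex. Of the 9 in the files 4 were tested, and Elane had no count in any library. Of the 4, Retnlg and Cxcr2 rose in every tumour group, beside 18.6% of all genes. The part of neutrophils in the Mmp9 result was not tested.

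**Figure D2:**
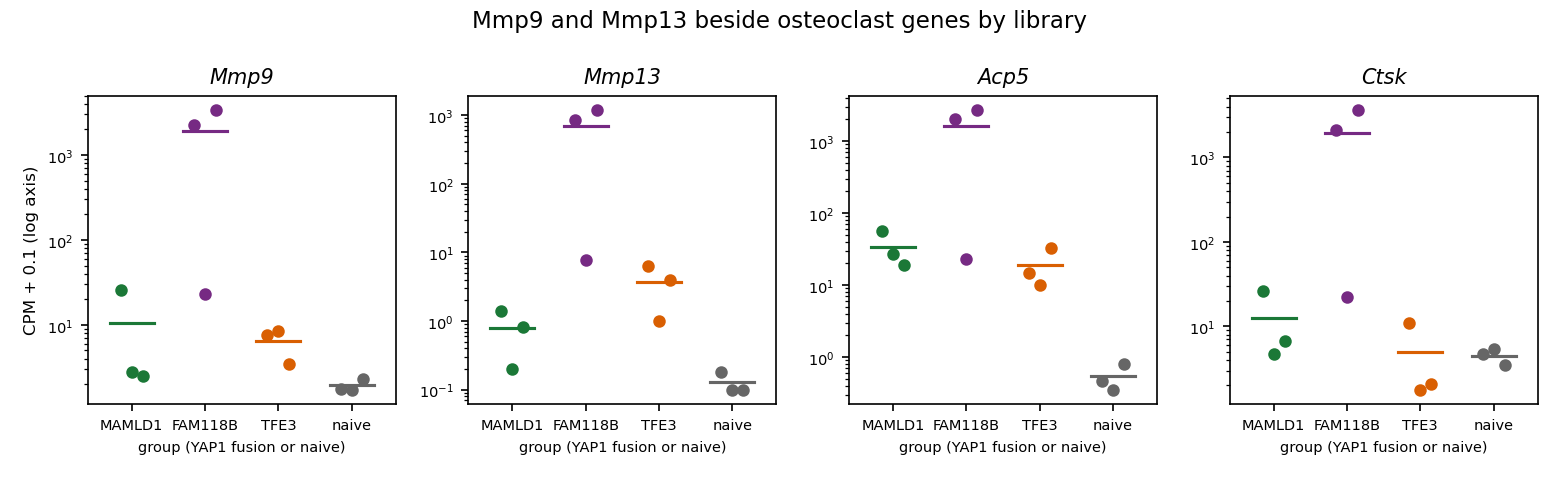
Mmp9 and Mmp13 beside the osteoclast genes Acp5 and Ctsk, as CPM + 0.1 on a log axis, with 1 point per library, groups named by the fusion partner of YAP1, and a bar at the group mean. In all 4 panels YAP1-FAM118B replicates 1 and 3 lie far above replicate 2, which sits among the other tumour libraries or close to them.

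The stromelysins cut proteoglycans and noncollagen matrix proteins and can activate other MMPs. Mmp3, stromelysin 1, had 57.8, 51.4 and 31.5 CPM in YAP1-MAMLD1-dR3R1 tumours, 17.8, 2.52 and 6.74 CPM in YAP1-FAM118B tumours and 4.68, 3.46 and 0.371 CPM in YAP1-TFE3 tumours, against 0, 0 and 0.044 CPM in naive cortex. Every YAP1-MAMLD1-dR3R1 library lay above every library of the other groups, and in naive cortex there was 1 count in all. The ratio to naive was 3354 (95% counting interval 602 to 132528) in YAP1-MAMLD1-dR3R1 tumours, 650.2 (95% counting interval 116 to 25722) in YAP1-FAM118B tumours and 200.3 (95% counting interval 35.5 to 7956) in YAP1-TFE3 tumours, with adjusted p = 0.000116, 0.00123 and 0.00133. Mmp3 was lower in YAP1-TFE3 than in YAP1-MAMLD1-dR3R1 tumours (log2 fold change -4.04 ± 0.90, adjusted p = 0.00569), and the difference of YAP1-FAM118B from YAP1-MAMLD1-dR3R1 missed the threshold (-2.38 ± 0.82, adjusted p = 0.0572).

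Mmp10, stromelysin 2, in the same cluster as Mmp3, had another order, with 0.233, 0.0967 and 0 CPM in YAP1-MAMLD1-dR3R1 tumours, 12.3, 2.1 and 7.15 CPM in YAP1-FAM118B tumours and 5.02, 4.26 and 4.55 CPM in YAP1-TFE3 tumours, against 0, 0 and 0 CPM in naive cortex. No naive library had a count, and YAP1-MAMLD1-dR3R1 tumours had 8 counts in 3 libraries. Against a floor of 3 counts over the naive group, Mmp10 was at least 171-fold higher in YAP1-FAM118B tumours (adjusted p = 0.00104) and at least 109-fold higher in YAP1-TFE3 tumours (adjusted p = 0.000381). In YAP1-MAMLD1-dR3R1 tumours it was at least 2.74-fold higher (adjusted p = 0.048), with the third library at 0, and that call ended without YAP1-MAMLD1-dR3R1 replicate 1 or 2, YAP1-FAM118B replicate 3, YAP1-TFE3 replicate 1, 2 or 3 or naive replicate 1, 2 or 3 (adjusted p up to 0.17). Mmp10 was higher than in YAP1-MAMLD1-dR3R1 tumours both in YAP1-FAM118B (log2 fold change 5.92 ± 0.98, adjusted p = 0.00832) and in YAP1-TFE3 tumours (5.28 ± 0.96, adjusted p = 0.00357). Mmp3 and Mmp10 differed in opposite directions between YAP1-TFE3 and YAP1-MAMLD1-dR3R1 tumours.

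Mmp11, stromelysin 3, which furin activates inside the cell, had 13.3, 10.2 and 14.9 CPM in YAP1-MAMLD1-dR3R1 tumours, 13.6, 6.13 and 19 CPM in YAP1-FAM118B tumours and 21.3, 18.8 and 9.1 CPM in YAP1-TFE3 tumours, against 1.03, 1.38 and 1.23 CPM in naive cortex. Tumour and naive libraries did not overlap. Mmp11 rose in YAP1-MAMLD1-dR3R1 (log2 fold change 3.40 ± 0.46, adjusted p = 0.000154), YAP1-FAM118B (3.40 ± 0.46, adjusted p = 0.000441) and YAP1-TFE3 tumours (3.75 ± 0.46, adjusted p = 6.4e-05). Mmp12, the macrophage elastase, had 9.51, 22.6 and 9.18 CPM in YAP1-MAMLD1-dR3R1 tumours, 36.9, 4.53 and 12.9 CPM in YAP1-FAM118B tumours and 66.4, 11.4 and 40.6 CPM in YAP1-TFE3 tumours, against 0, 0.126 and 0 CPM in naive cortex. The naive group held 3 counts, and the ratio to it was 315 (95% counting interval 108 to 1532) in YAP1-MAMLD1-dR3R1 tumours, 435 (95% counting interval 149 to 2113) in YAP1-FAM118B tumours and 915 (95% counting interval 313 to 4441) in YAP1-TFE3 tumours, with adjusted p = 0.000472, 0.00104 and 0.000137. Fusions overlapped for both genes, and neither passed the test between any pair of fusions. The 10 markers of microglia and macrophages, all detected in every group, summed to 6640.4 to 9926 CPM in YAP1-MAMLD1-dR3R1 tumours, 2065 to 2361 CPM in YAP1-FAM118B tumours and 1514 to 4707 CPM in YAP1-TFE3 tumours, against 221 to 286 CPM in naive cortex. Of all genes 34.4%, 21.3% and 40.6% rose in these groups. Of the markers all 10 rose in YAP1-MAMLD1-dR3R1 tumours, and 9 each in YAP1-FAM118B and YAP1-TFE3 tumours. Between fusions, 9 of the 10 were lower and 1 higher in YAP1-TFE3 than in YAP1-MAMLD1-dR3R1 tumours, beside 16.9% and 22.6% of all genes. Against YAP1-FAM118B tumours 1 was higher and 0 lower in YAP1-TFE3 tumours, beside 28% and 23.7%. Cd68, a lysosomal marker, differed from most of them and was highest in YAP1-TFE3 tumours. It had 217, 174 and 168 CPM in YAP1-MAMLD1-dR3R1 tumours, 161, 47.7 and 193 CPM in YAP1-FAM118B tumours and 457, 389 and 827 CPM in YAP1-TFE3 tumours, against 5.17, 5.86 and 4 CPM in naive cortex. The part of these cells in the rise of Mmp12 was not tested.

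**Figure D3:**
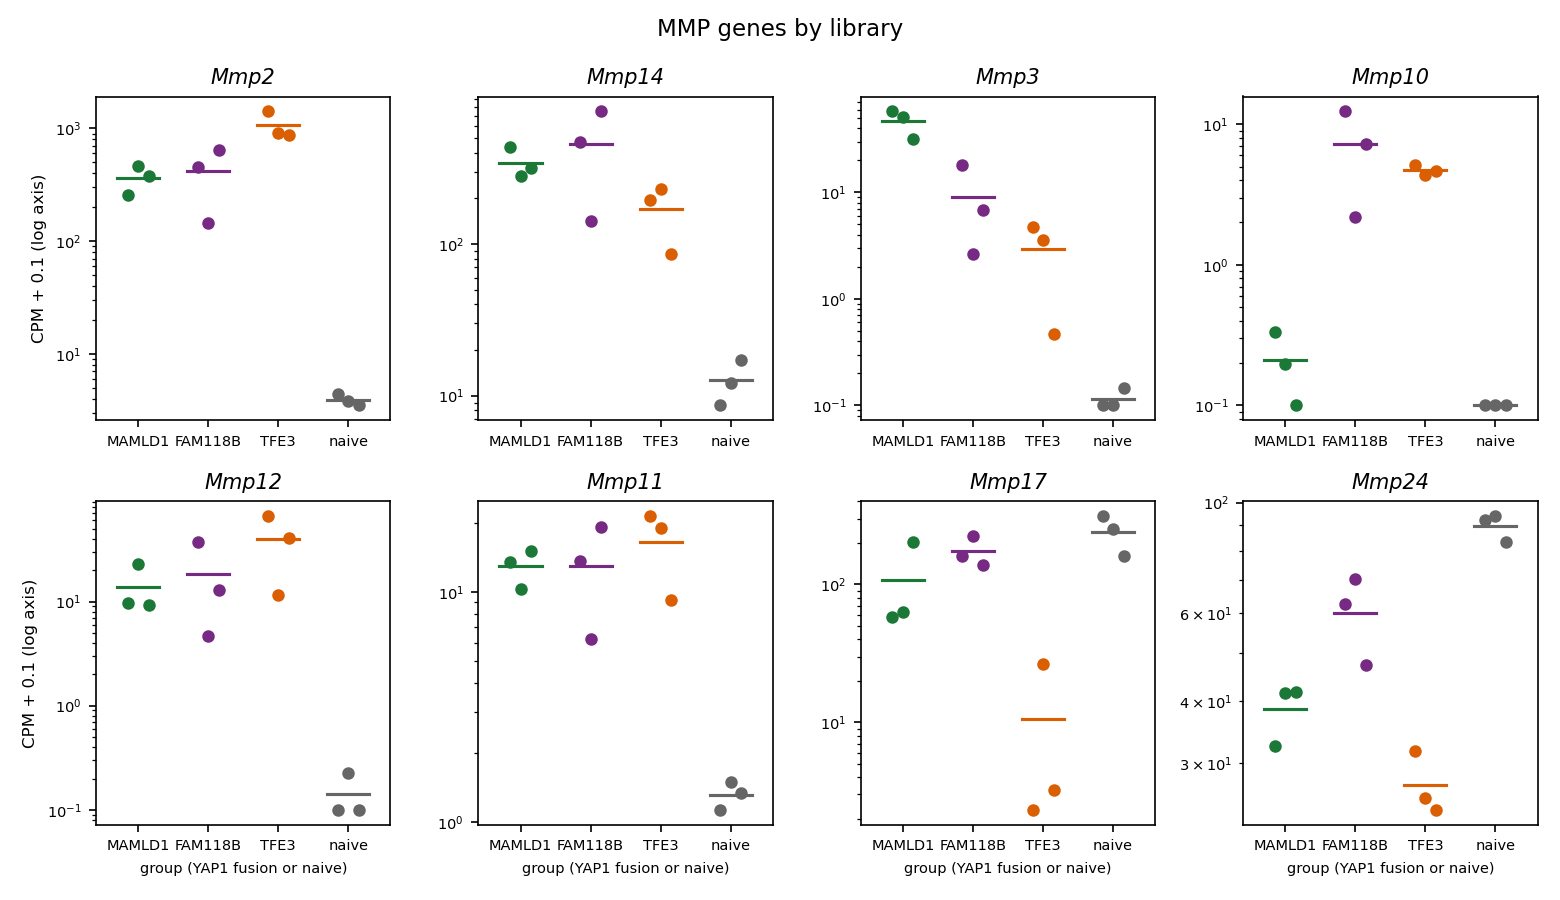
Levels of selected MMP genes, as CPM + 0.1 on a log axis, with 1 point per library, groups named by the fusion partner of YAP1, and a bar at the group mean. Mmp3 is highest in the YAP1-MAMLD1-dR3R1 libraries and Mmp10 in those of the other fusions, while Mmp24 is highest in naive cortex.

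The other membrane-type enzymes moved less evenly: Mmp24 fell in every tumour group, Mmp17 fell in YAP1-TFE3 tumours, Mmp25 rose in every group, and Mmp15 and Mmp16 passed the test between fusions but not against naive. Mmp24, MT5-MMP, a protease of neurons known to cut N-cadherin, had 32.4, 41.3 and 41.5 CPM in YAP1-MAMLD1-dR3R1 tumours, 62.4, 70.3 and 47.1 CPM in YAP1-FAM118B tumours and 31.6, 25.5 and 24.1 CPM in YAP1-TFE3 tumours, against 92, 94 and 83.2 CPM in naive cortex. All tumour libraries lay below all naive libraries, and the 3 fusions did not overlap one another, in the order YAP1-FAM118B, YAP1-MAMLD1-dR3R1 and YAP1-TFE3 from high to low. Mmp24 fell in YAP1-MAMLD1-dR3R1 (log2 fold change -1.23 ± 0.17, adjusted p = 0.000212), YAP1-FAM118B (-0.58 ± 0.17, adjusted p = 0.0284) and YAP1-TFE3 tumours (-1.73 ± 0.18, adjusted p = 1.98e-05). It was higher in YAP1-FAM118B than in YAP1-MAMLD1-dR3R1 tumours (0.64 ± 0.17, adjusted p = 0.0252) and lower in YAP1-TFE3 than in YAP1-MAMLD1-dR3R1 (-0.51 ± 0.17, adjusted p = 0.0404) and YAP1-FAM118B tumours (-1.15 ± 0.17, adjusted p = 0.000547). The fall in YAP1-FAM118B tumours ended without YAP1-FAM118B replicate 1 or 3 or naive replicate 1 or 2 (adjusted p up to 0.104), the call of YAP1-FAM118B against YAP1-MAMLD1-dR3R1 ended without YAP1-MAMLD1-dR3R1 replicate 1 or YAP1-FAM118B replicate 1 or 2 (adjusted p up to 0.0855), and that of YAP1-TFE3 against YAP1-MAMLD1-dR3R1 ended without YAP1-FAM118B replicate 1 or naive replicate 2 or 3 (adjusted p up to 0.0575). The value of YAP1-TFE3 against YAP1-MAMLD1-dR3R1 was -0.77 without YAP1-TFE3 replicate 1. BC029722, on the opposite strand, shares 13.6% of the Mmp24 exon bases and had 46.2 to 67.6 CPM in tumours, against 76.5 to 83.2 CPM in naive cortex.

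Mmp17, MT4-MMP, which is held to the membrane by a GPI anchor, had 57.8, 63.4 and 204 CPM in YAP1-MAMLD1-dR3R1 tumours, 159.7, 223 and 138 CPM in YAP1-FAM118B tumours and 2.22, 26.2 and 3.11 CPM in YAP1-TFE3 tumours, against 314, 251 and 159.5 CPM in naive cortex. The YAP1-TFE3 libraries lay below every other library, with replicate 2 far above the other 2. It fell in YAP1-TFE3 tumours (log2 fold change -4.52 ± 0.96, adjusted p = 0.00187) and was lower there than in YAP1-MAMLD1-dR3R1 (-3.36 ± 0.91, adjusted p = 0.0151) and YAP1-FAM118B tumours (-4.04 ± 0.94, adjusted p = 0.00532). Without YAP1-TFE3 replicate 2 these differences from YAP1-MAMLD1-dR3R1 and YAP1-FAM118B were -5.53 and -6.32. In YAP1-MAMLD1-dR3R1 and YAP1-FAM118B tumours Mmp17 did not pass the test against naive (-1.16 ± 0.84 and -0.48 ± 0.83). Neuronal markers in YAP1-TFE3 replicates 1, 2 and 3 summed to 97, 965 and 115 CPM, with replicate 2 again the highest, and in naive cortex to 9458, 7929 and 6304 CPM. In YAP1-FAM118B tumours they summed to 4220, 5417 and 3586 CPM, in the same order as Mmp17. In YAP1-MAMLD1-dR3R1 tumours they summed to 1291, 1019 and 523 CPM, lowest in replicate 3, where Mmp17 was highest. Their part in the fall of Mmp17 and Mmp24 was not tested.

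Mmp25, the other GPI-anchored enzyme, known from neutrophils, had 3.42, 9.72 and 10.7 CPM in YAP1-MAMLD1-dR3R1 tumours, 2.46, 1.26 and 3.23 CPM in YAP1-FAM118B tumours and 0.723, 2.53 and 4.88 CPM in YAP1-TFE3 tumours, against 0.411, 0.168 and 0.176 CPM in naive cortex. Every tumour library lay above every naive library, and the YAP1-FAM118B libraries lay below those of YAP1-MAMLD1-dR3R1. Mmp25 rose in YAP1-MAMLD1-dR3R1 (log2 fold change 4.95 ± 0.82, adjusted p = 0.000539), YAP1-FAM118B (3.17 ± 0.78, adjusted p = 0.0125) and YAP1-TFE3 tumours (3.40 ± 0.78, adjusted p = 0.00297). The call in YAP1-FAM118B tumours ended without naive replicate 2 or 3 (adjusted p up to 0.0514). Of the neutrophil markers, 2 of the 4 tested rose in each tumour group, as given above, at summed levels like those of Mmp25 itself, and their part in the Mmp25 result was not tested.

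Mmp15 and Mmp16, MT2-MMP and MT3-MMP, are less studied members of the same kind. Mmp15 had 21.8, 60.2 and 123 CPM in YAP1-MAMLD1-dR3R1 tumours, 17, 27 and 12.2 CPM in YAP1-FAM118B tumours and 43.9, 47.4 and 69.8 CPM in YAP1-TFE3 tumours, against 23.9, 24.5 and 50.7 CPM in naive cortex. It was lower in YAP1-FAM118B than in YAP1-MAMLD1-dR3R1 tumours (log2 fold change -1.86 ± 0.57, adjusted p = 0.0394), where the libraries overlapped, and higher in YAP1-TFE3 than in YAP1-FAM118B tumours (1.52 ± 0.57, adjusted p = 0.0457). The call of YAP1-FAM118B against YAP1-MAMLD1-dR3R1 ended without YAP1-MAMLD1-dR3R1 replicate 2 or 3, YAP1-FAM118B replicate 1, 2 or 3, YAP1-TFE3 replicate 1 or naive replicate 1 or 2 (adjusted p up to 0.167), and that of YAP1-TFE3 against YAP1-FAM118B ended without YAP1-MAMLD1-dR3R1 replicate 2, YAP1-FAM118B replicate 1 or 3, YAP1-TFE3 replicate 1, 2 or 3 or naive replicate 1 or 2 (adjusted p up to 0.169). Mmp16 had 32.7, 27.7 and 50.6 CPM in YAP1-MAMLD1-dR3R1 tumours, 12.3, 25.9 and 12 CPM in YAP1-FAM118B tumours and 18, 17.3 and 21.5 CPM in YAP1-TFE3 tumours, against 34.7, 27 and 26.2 CPM in naive cortex. Its YAP1-MAMLD1-dR3R1 libraries lay above those of the other fusions, and it was lower in YAP1-FAM118B (log2 fold change -1.15 ± 0.32, adjusted p = 0.0294) and YAP1-TFE3 tumours (-0.97 ± 0.32, adjusted p = 0.0364) than in YAP1-MAMLD1-dR3R1 tumours. The first of these calls ended without YAP1-MAMLD1-dR3R1 replicate 3 or YAP1-FAM118B replicate 1 or 3 (adjusted p up to 0.102), and the second ended without YAP1-MAMLD1-dR3R1 replicate 1 or naive replicate 2 (adjusted p up to 0.0513).

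Mmp19, a secreted enzyme of basement membrane proteins, had 45.7, 39.8 and 50.7 CPM in YAP1-MAMLD1-dR3R1 tumours, 40.2, 18.8 and 58 CPM in YAP1-FAM118B tumours and 16.5, 10.4 and 12.4 CPM in YAP1-TFE3 tumours, against 3.53, 4.36 and 5.37 CPM in naive cortex. The tumour libraries lay above the naive ones, and those of YAP1-TFE3 below those of the other fusions. Mmp19 rose in YAP1-MAMLD1-dR3R1 (log2 fold change 3.36 ± 0.39, adjusted p = 6.31e-05), YAP1-FAM118B (3.14 ± 0.38, adjusted p = 0.00025) and YAP1-TFE3 tumours (1.57 ± 0.36, adjusted p = 0.00318). In YAP1-TFE3 tumours it was lower than in YAP1-MAMLD1-dR3R1 (-1.79 ± 0.36, adjusted p = 0.00343) and YAP1-FAM118B tumours (-1.57 ± 0.36, adjusted p = 0.00478). Opposite-strand genes share 28.3% of its exon bases, among them Tmem198b, which had 12.8 to 54.7 CPM in tumours, against 8.54 to 12 CPM in naive cortex. Mmp23, a membrane enzyme without the usual cysteine switch, had 10.7, 6.91 and 40.3 CPM in YAP1-MAMLD1-dR3R1 tumours, 14.9, 3.61 and 18.5 CPM in YAP1-FAM118B tumours and 33.3, 25.3 and 4.6 CPM in YAP1-TFE3 tumours, against 0.575, 0.419 and 0.968 CPM in naive cortex. All tumour libraries lay above the naive ones, and the fusions overlapped. Mmp23 rose in YAP1-MAMLD1-dR3R1 (log2 fold change 4.88 ± 1.02, adjusted p = 0.0022), YAP1-FAM118B (4.23 ± 0.99, adjusted p = 0.0104) and YAP1-TFE3 tumours (5.0 ± 1.02, adjusted p = 0.00152). Mmp28, epilysin, had 6.8, 7.25 and 10.7 CPM in YAP1-MAMLD1-dR3R1 tumours, 2.38, 3.02 and 2.95 CPM in YAP1-FAM118B tumours and 1.4, 0.709 and 1.25 CPM in YAP1-TFE3 tumours, against 0.78, 1.42 and 1.14 CPM in naive cortex. Its YAP1-MAMLD1-dR3R1 libraries lay above all others, and it rose in YAP1-MAMLD1-dR3R1 (log2 fold change 2.88 ± 0.36, adjusted p = 0.000103) and YAP1-FAM118B tumours (1.32 ± 0.35, adjusted p = 0.0174). In YAP1-FAM118B tumours it was lower than in YAP1-MAMLD1-dR3R1 tumours (-1.57 ± 0.34, adjusted p = 0.013), and in YAP1-TFE3 tumours lower than in YAP1-MAMLD1-dR3R1 (-2.88 ± 0.36, adjusted p = 0.000247) and YAP1-FAM118B tumours (-1.31 ± 0.35, adjusted p = 0.0102). The rise in YAP1-FAM118B tumours ended without YAP1-FAM118B replicate 3 or naive replicate 3 (adjusted p up to 0.0551), and the call of YAP1-FAM118B against YAP1-MAMLD1-dR3R1 ended without YAP1-FAM118B replicate 1 (adjusted p = 0.0516).

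The 7 MMPs that were not tested were near the limit of detection. Mmp1a, Mmp1b and Mmp20 had at most 1 count in a library and Mmp21 at most 4. Mmp8, the neutrophil collagenase, reached 36 counts in YAP1-TFE3 replicate 1, Mmp27 reached 25 in YAP1-FAM118B replicate 1, and Mmp7, matrilysin, reached 10 in YAP1-MAMLD1-dR3R1 replicate 2. In naive cortex all 7 had 0 counts, where 3 counts correspond to at most 0.132 CPM in a library, and this covers counting error only.

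Of the 19 ADAMTS genes, 11 rose and 4 fell in YAP1-MAMLD1-dR3R1 tumours, 10 rose in YAP1-FAM118B tumours while the other 9 did not pass the test, and 6 rose and 6 fell in YAP1-TFE3 tumours. Of all genes 34.4%, 21.3% and 40.6% rose and 28.8%, 8.45% and 30% fell in these groups, so the shares in YAP1-TFE3 tumours were near those of genes in general. The median log2 fold changes were 2.02, 1.39 and -0.73. Of the 16 MMPs tested, 10 rose and 1 fell in YAP1-MAMLD1-dR3R1, 12 and 1 in YAP1-FAM118B, and 10 and 2 in YAP1-TFE3 tumours, with medians of 3.91, 3.82 and 3.57, and the difference between the families was not tested. Adamts1, 5, 7, 9, 10 and 14 rose in every group.

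**Figure D4:**
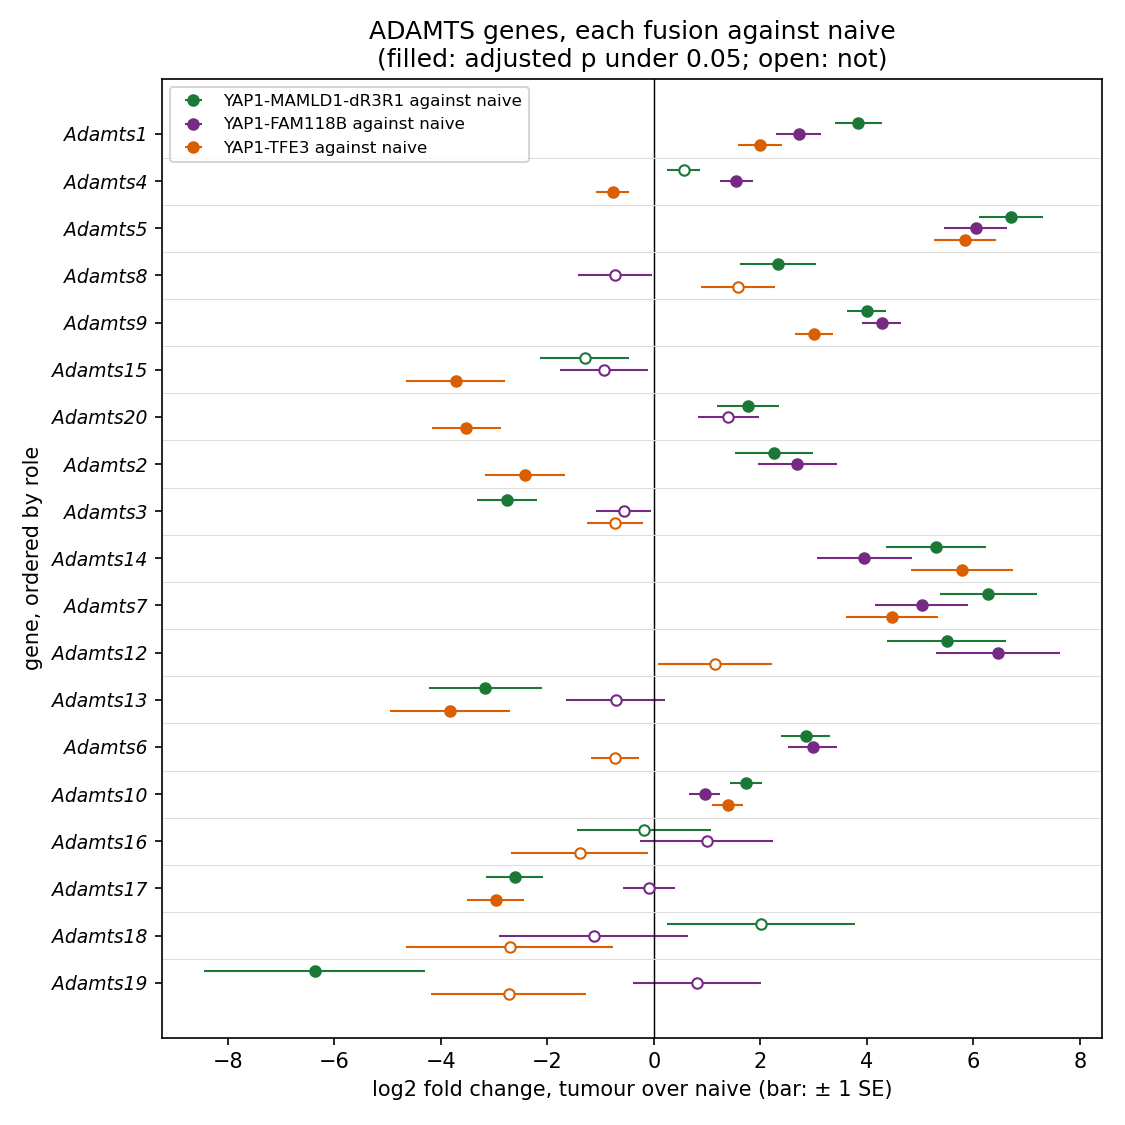
Log2 fold changes of the 19 ADAMTS genes in each fusion against naive, with bars of 1 SE, 3 libraries a group, and filled points where the adjusted p is under 0.05. Adamts5 and Adamts7 lie right of 4 in all 3 contrasts, while Adamts2 and Adamts20 lie right of 0 in YAP1-MAMLD1-dR3R1 and YAP1-FAM118B and left of it in YAP1-TFE3.

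Among the ADAMTS proteases that cut proteoglycans such as aggrecan, versican and brevican, Adamts1, Adamts5 and Adamts9 rose throughout. Adamts5, aggrecanase 2, had 382, 83.9 and 208 CPM in YAP1-MAMLD1-dR3R1 tumours, 125, 101 and 199 CPM in YAP1-FAM118B tumours and 119.8, 125 and 123 CPM in YAP1-TFE3 tumours, against 1.97, 1.42 and 3.04 CPM in naive cortex. It rose in YAP1-MAMLD1-dR3R1 (log2 fold change 6.71 ± 0.61, adjusted p = 1.9e-05), YAP1-FAM118B (6.05 ± 0.59, adjusted p = 7.71e-05) and YAP1-TFE3 tumours (5.84 ± 0.59, adjusted p = 1.83e-05), and the fusions overlapped. Adamts1, also known as an inhibitor of vessel growth, had 356, 107 and 239 CPM in YAP1-MAMLD1-dR3R1 tumours, 108, 72 and 143 CPM in YAP1-FAM118B tumours and 75.2, 66.5 and 54.5 CPM in YAP1-TFE3 tumours, against 12.2, 16.4 and 20.4 CPM in naive cortex. Every tumour library lay above every naive library. Adamts1 rose in YAP1-MAMLD1-dR3R1 (log2 fold change 3.84 ± 0.44, adjusted p = 6.58e-05), YAP1-FAM118B (2.72 ± 0.42, adjusted p = 0.00105) and YAP1-TFE3 tumours (2.0 ± 0.41, adjusted p = 0.00157). All YAP1-TFE3 libraries lay below all YAP1-MAMLD1-dR3R1 libraries, and the difference passed the test (-1.84 ± 0.41, adjusted p = 0.00573). Adamts9 had 101, 56.9 and 55.8 CPM in YAP1-MAMLD1-dR3R1 tumours, 92.2, 60.0 and 108 CPM in YAP1-FAM118B tumours and 34.4, 48.2 and 25 CPM in YAP1-TFE3 tumours, against 3.49, 4.94 and 4.97 CPM in naive cortex. The tumour libraries lay above the naive ones, with those of YAP1-TFE3 below those of the other fusions. Adamts9 rose in YAP1-MAMLD1-dR3R1 (log2 fold change 4.0 ± 0.36, adjusted p = 1.96e-05), YAP1-FAM118B (4.28 ± 0.37, adjusted p = 4.1e-05) and YAP1-TFE3 tumours (3.0 ± 0.35, adjusted p = 4.56e-05). It was lower in YAP1-TFE3 than in YAP1-MAMLD1-dR3R1 (-0.99 ± 0.32, adjusted p = 0.0343) and YAP1-FAM118B tumours (-1.27 ± 0.33, adjusted p = 0.00866), and the call against YAP1-MAMLD1-dR3R1 ended without YAP1-MAMLD1-dR3R1 replicate 1, YAP1-FAM118B replicate 1 or YAP1-TFE3 replicate 1 or 3 (adjusted p up to 0.13).

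Adamts4, aggrecanase 1, and Adamts20, a relative of Adamts9, went different ways. Adamts4 had 62.9, 48.9 and 48.8 CPM in YAP1-MAMLD1-dR3R1 tumours, 111, 88.2 and 119 CPM in YAP1-FAM118B tumours and 19.1, 31 and 13.7 CPM in YAP1-TFE3 tumours, against 33.6, 26.1 and 49.4 CPM in naive cortex. All YAP1-FAM118B libraries lay above all others, and it rose in YAP1-FAM118B tumours (log2 fold change 1.55 ± 0.31, adjusted p = 0.00462) while it fell in YAP1-TFE3 tumours (-0.77 ± 0.31, adjusted p = 0.0436), where tumour and naive libraries overlapped. That fall ended without YAP1-FAM118B replicate 1, 2 or 3, YAP1-TFE3 replicate 1 or 3 or naive replicate 3 (adjusted p up to 0.187), and was -1.38 without YAP1-TFE3 replicate 2. Adamts4 was higher in YAP1-FAM118B than in YAP1-MAMLD1-dR3R1 tumours (0.99 ± 0.31, adjusted p = 0.0406) and lower in YAP1-TFE3 than in YAP1-MAMLD1-dR3R1 (-1.33 ± 0.31, adjusted p = 0.00735) and YAP1-FAM118B tumours (-2.32 ± 0.32, adjusted p = 0.000329). The higher level in YAP1-FAM118B than in YAP1-MAMLD1-dR3R1 ended without YAP1-MAMLD1-dR3R1 replicate 2 or 3, YAP1-FAM118B replicate 1, 2 or 3, YAP1-TFE3 replicate 1 or naive replicate 1 (adjusted p up to 0.129).

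Adamts20 had 14.2, 20.3 and 60.0 CPM in YAP1-MAMLD1-dR3R1 tumours, 19.4, 23.6 and 29.7 CPM in YAP1-FAM118B tumours and 0.241, 0.709 and 1.44 CPM in YAP1-TFE3 tumours, against 8.29, 9.3 and 10.1 CPM in naive cortex. The YAP1-TFE3 libraries lay below all others, and those of the other fusions above the naive ones. Adamts20 rose in YAP1-MAMLD1-dR3R1 tumours (log2 fold change 1.77 ± 0.58, adjusted p = 0.0217) and fell in YAP1-TFE3 tumours (-3.52 ± 0.65, adjusted p = 0.000833), and in YAP1-FAM118B tumours it missed the threshold (1.39 ± 0.57, adjusted p = 0.093). Adamts20 was lower in YAP1-TFE3 than in YAP1-MAMLD1-dR3R1 (-5.29 ± 0.69, adjusted p = 0.000327) and YAP1-FAM118B tumours (-4.92 ± 0.69, adjusted p = 0.000349). The rise in YAP1-MAMLD1-dR3R1 tumours ended without YAP1-MAMLD1-dR3R1 replicate 3 or naive replicate 1, 2 or 3 (adjusted p up to 0.129).

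Adamts8 had 7.84, 12.9 and 41.8 CPM in YAP1-MAMLD1-dR3R1 tumours, 2.96, 2.23 and 2.31 CPM in YAP1-FAM118B tumours and 21.9, 3.15 and 12.2 CPM in YAP1-TFE3 tumours, against 4.47, 3.6 and 4.36 CPM in naive cortex. The YAP1-FAM118B libraries lay below those of every other group. Adamts8 rose in YAP1-MAMLD1-dR3R1 tumours (log2 fold change 2.33 ± 0.71, adjusted p = 0.0163), was lower in YAP1-FAM118B than in YAP1-MAMLD1-dR3R1 tumours (-3.06 ± 0.74, adjusted p = 0.0181) and was higher in YAP1-TFE3 than in YAP1-FAM118B tumours (2.31 ± 0.72, adjusted p = 0.0218). The first of these calls ended without YAP1-MAMLD1-dR3R1 replicate 3 or naive replicate 2 (adjusted p up to 0.0843), the second ended without YAP1-MAMLD1-dR3R1 replicate 3 or YAP1-FAM118B replicate 1 or 2 (adjusted p up to 0.063), and the third ended without YAP1-FAM118B replicate 1, 2 or 3 or YAP1-TFE3 replicate 1 or 3 (adjusted p up to 0.139). Adamts15 had 4.85, 5.46 and 3.81 CPM in YAP1-MAMLD1-dR3R1 tumours, 10.4, 3.86 and 3.78 CPM in YAP1-FAM118B tumours and 0.289, 2.17 and 0.139 CPM in YAP1-TFE3 tumours, against 5.95, 8.04 and 20.8 CPM in naive cortex. The YAP1-TFE3 libraries lay below all others. Adamts15 fell in YAP1-TFE3 tumours (log2 fold change -3.72 ± 0.93, adjusted p = 0.00481) and was lower there than in YAP1-FAM118B tumours (-2.78 ± 0.90, adjusted p = 0.0257). The difference from YAP1-FAM118B ended without YAP1-FAM118B replicate 1 or YAP1-TFE3 replicate 1 or 3 (adjusted p up to 0.0942). Without YAP1-TFE3 replicate 2, the highest of its group, these values were -5.96 and -5.08.

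Adamts2, 3 and 14 remove the amino-terminal propeptide of fibrillar procollagens. Adamts2, the main enzyme of this kind in skin, had 109.7, 51.9 and 143 CPM in YAP1-MAMLD1-dR3R1 tumours, 152, 20.2 and 241 CPM in YAP1-FAM118B tumours and 4.15, 2.53 and 5.25 CPM in YAP1-TFE3 tumours, against 17, 16.9 and 29.8 CPM in naive cortex. All YAP1-TFE3 libraries lay below all other libraries. Adamts2 rose in YAP1-MAMLD1-dR3R1 (log2 fold change 2.26 ± 0.73, adjusted p = 0.0207) and YAP1-FAM118B tumours (2.70 ± 0.74, adjusted p = 0.0212), where YAP1-FAM118B replicate 2 lay within the naive range, and fell in YAP1-TFE3 tumours (-2.42 ± 0.75, adjusted p = 0.0148). It was lower in YAP1-TFE3 than in YAP1-MAMLD1-dR3R1 (-4.67 ± 0.82, adjusted p = 0.00166) and YAP1-FAM118B tumours (-5.12 ± 0.83, adjusted p = 0.000836). The rise in YAP1-MAMLD1-dR3R1 ended without YAP1-MAMLD1-dR3R1 replicate 3 or naive replicate 1 or 2 (adjusted p up to 0.0748), and that in YAP1-FAM118B ended without YAP1-FAM118B replicate 1 or 3 or naive replicate 1 or 2 (adjusted p up to 0.0878). Fibroblast and meningeal markers summed to 5670.4, 4038 and 4873 CPM in YAP1-MAMLD1-dR3R1, 14224, 3628 and 18400.3 CPM in YAP1-FAM118B and 1705, 507 and 679.8 CPM in YAP1-TFE3 tumours, against 844, 842 and 828 CPM in naive cortex. Thy1, which neurons also express, made up most of the naive sum. Without it, as chosen after the values were seen, the sum was 5521, 3903 and 4810.3 CPM in YAP1-MAMLD1-dR3R1 tumours, 13726, 3198 and 17986 CPM in YAP1-FAM118B tumours and 1695, 415 and 663 CPM in YAP1-TFE3 tumours, against 113, 183 and 179.9 CPM in naive cortex. Most of this YAP1-TFE3 sum was Col1a2, with 1438, 266 and 504 CPM, against 17, 34.6 and 29.6 CPM in naive cortex. Of the 9 markers 4 rose and 1 fell in YAP1-MAMLD1-dR3R1 tumours, beside 34.4% and 28.8% of all genes. In YAP1-FAM118B tumours 4 rose, beside 21.3%, and in YAP1-TFE3 tumours 1 rose and 1 fell, beside 40.6% and 30%. All 9 markers were detected in every group, YAP1-FAM118B replicate 2 was the lowest of its group in both sums and in Adamts2, and their part in the Adamts2 result was not tested.

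Adamts14 had 20.6, 17.7 and 23.8 CPM in YAP1-MAMLD1-dR3R1 tumours, 11.7, 5.25 and 7.52 CPM in YAP1-FAM118B tumours and 50.4, 34.8 and 2.23 CPM in YAP1-TFE3 tumours, against 0.575, 0.461 and 0.528 CPM in naive cortex. Tumour and naive libraries did not overlap, and the YAP1-FAM118B libraries lay below those of YAP1-MAMLD1-dR3R1. Adamts14 rose in YAP1-MAMLD1-dR3R1 (log2 fold change 5.30 ± 0.94, adjusted p = 0.000813), YAP1-FAM118B (3.95 ± 0.90, adjusted p = 0.00858) and YAP1-TFE3 tumours (5.79 ± 0.95, adjusted p = 0.000398), where replicate 3 lay far below the other 2. Adamts3, which also processes the lymphatic growth factor VEGF-C, had 5.05, 3.87 and 1.06 CPM in YAP1-MAMLD1-dR3R1 tumours, 16.6, 22.1 and 6.92 CPM in YAP1-FAM118B tumours and 12.1, 14.2 and 14.5 CPM in YAP1-TFE3 tumours, against 23.1, 28.4 and 16.1 CPM in naive cortex. It fell in YAP1-MAMLD1-dR3R1 tumours (log2 fold change -2.76 ± 0.56, adjusted p = 0.00179), with all its libraries below those of every other group. It was higher in YAP1-FAM118B (2.19 ± 0.55, adjusted p = 0.0199) and YAP1-TFE3 tumours (2.03 ± 0.54, adjusted p = 0.0145) than in YAP1-MAMLD1-dR3R1 tumours. The call of YAP1-FAM118B against YAP1-MAMLD1-dR3R1 ended without YAP1-MAMLD1-dR3R1 replicate 2 or YAP1-FAM118B replicate 1 or 2 (adjusted p up to 0.066), and that of YAP1-TFE3 against YAP1-MAMLD1-dR3R1 ended without YAP1-MAMLD1-dR3R1 replicate 2 (adjusted p = 0.0503).

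Adamts7 and Adamts12 cut cartilage oligomeric matrix protein. Adamts7 had 15.5, 26.4 and 67.9 CPM in YAP1-MAMLD1-dR3R1 tumours, 14.5, 8.1 and 23.5 CPM in YAP1-FAM118B tumours and 20.9, 7.54 and 2.88 CPM in YAP1-TFE3 tumours, against 0.493, 0.419 and 0.484 CPM in naive cortex. Tumour and naive libraries did not overlap, while the fusions did. Adamts7 rose in YAP1-MAMLD1-dR3R1 (log2 fold change 6.28 ± 0.91, adjusted p = 0.000248), YAP1-FAM118B (5.03 ± 0.87, adjusted p = 0.00201) and YAP1-TFE3 tumours (4.47 ± 0.86, adjusted p = 0.00102). Adamts12 had 35.6, 7.49 and 18.5 CPM in YAP1-MAMLD1-dR3R1 tumours, 32.8, 6.09 and 81.7 CPM in YAP1-FAM118B tumours and 1.54, 0.399 and 1.07 CPM in YAP1-TFE3 tumours, against 0.164, 0.963 and 0.22 CPM in naive cortex, with YAP1-FAM118B replicate 2 again the lowest of its group. It rose in YAP1-MAMLD1-dR3R1 (log2 fold change 5.50 ± 1.12, adjusted p = 0.00192) and YAP1-FAM118B tumours (6.46 ± 1.16, adjusted p = 0.00246) and missed the threshold in YAP1-TFE3 tumours (1.14 ± 1.07, adjusted p = 0.355). Adamts12 was lower in YAP1-TFE3 than in YAP1-MAMLD1-dR3R1 (-4.36 ± 1.05, adjusted p = 0.00855) and YAP1-FAM118B tumours (-5.32 ± 1.09, adjusted p = 0.00276).

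Adamts6 and Adamts10 act on fibrillin microfibrils. Adamts6 had 13.2, 13.3 and 11.4 CPM in YAP1-MAMLD1-dR3R1 tumours, 13.6, 6.21 and 21.9 CPM in YAP1-FAM118B tumours and 0.723, 1.42 and 1.02 CPM in YAP1-TFE3 tumours, against 2.01, 1.13 and 2.11 CPM in naive cortex. The YAP1-MAMLD1-dR3R1 and YAP1-FAM118B libraries lay above those of both other groups. Adamts6 rose in YAP1-MAMLD1-dR3R1 (log2 fold change 2.85 ± 0.46, adjusted p = 0.000451) and YAP1-FAM118B tumours (2.98 ± 0.46, adjusted p = 0.000999), missed the threshold in YAP1-TFE3 tumours (-0.73 ± 0.45, adjusted p = 0.171), and was lower there than in YAP1-MAMLD1-dR3R1 (-3.58 ± 0.48, adjusted p = 0.000353) and YAP1-FAM118B tumours (-3.71 ± 0.48, adjusted p = 0.000228). Adamts10 had 24.9, 26.6 and 45.9 CPM in YAP1-MAMLD1-dR3R1 tumours, 21.4, 14.5 and 21 CPM in YAP1-FAM118B tumours and 33.3, 20.4 and 23.1 CPM in YAP1-TFE3 tumours, against 8.25, 11.8 and 9.24 CPM in naive cortex. All tumour libraries lay above the naive ones. Adamts10 rose in YAP1-MAMLD1-dR3R1 (log2 fold change 1.73 ± 0.29, adjusted p = 0.000632), YAP1-FAM118B (0.96 ± 0.29, adjusted p = 0.0314) and YAP1-TFE3 tumours (1.39 ± 0.29, adjusted p = 0.00174). The call in YAP1-FAM118B tumours ended without YAP1-FAM118B replicate 1 or 3 or naive replicate 1 or 3 (adjusted p up to 0.102). Adamts17 had 0.971, 0.58 and 0.843 CPM in YAP1-MAMLD1-dR3R1 tumours, 3.82, 2.56 and 7.47 CPM in YAP1-FAM118B tumours and 0.241, 0.976 and 0.65 CPM in YAP1-TFE3 tumours, against 4.89, 4.48 and 5.41 CPM in naive cortex. The YAP1-MAMLD1-dR3R1 and YAP1-TFE3 libraries lay below those of YAP1-FAM118B and naive cortex. Adamts17 fell in YAP1-MAMLD1-dR3R1 (log2 fold change -2.61 ± 0.53, adjusted p = 0.00182) and YAP1-TFE3 tumours (-2.97 ± 0.54, adjusted p = 0.000738), was higher in YAP1-FAM118B than in YAP1-MAMLD1-dR3R1 tumours (2.52 ± 0.53, adjusted p = 0.0116) and lower in YAP1-TFE3 than in YAP1-FAM118B tumours (-2.88 ± 0.54, adjusted p = 0.00175).

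The remaining 4 ADAMTS genes were low or uneven. Adamts13, the protease of von Willebrand factor, had at most 1.26 CPM in any library. It fell in YAP1-MAMLD1-dR3R1 (log2 fold change -3.16 ± 1.06, adjusted p = 0.0247) and YAP1-TFE3 tumours (-3.83 ± 1.13, adjusted p = 0.0118) and was lower in YAP1-TFE3 than in YAP1-FAM118B tumours (-3.11 ± 1.13, adjusted p = 0.0413). The fall in YAP1-MAMLD1-dR3R1 ended without YAP1-MAMLD1-dR3R1 replicate 1 or 2 or naive replicate 1 or 2 (adjusted p up to 0.0714) and the call of YAP1-TFE3 against YAP1-FAM118B ended without YAP1-MAMLD1-dR3R1 replicate 1, YAP1-FAM118B replicate 1, 2 or 3, YAP1-TFE3 replicate 1 or 3 or naive replicate 1, 2 or 3 (adjusted p up to 0.108). Without YAP1-TFE3 replicate 2, the only library of that group with counts, the fitted values in YAP1-TFE3 tumours were -7.46 against naive and -6.81 against YAP1-FAM118B, which then depend on the prior count. Adamts19 had no count in YAP1-MAMLD1-dR3R1 tumours and at most 1.22 CPM elsewhere. It was at least 10.1-fold lower in YAP1-MAMLD1-dR3R1 tumours than in naive cortex (adjusted p = 0.0264) and at least 18.4-fold higher in YAP1-FAM118B than in YAP1-MAMLD1-dR3R1 tumours (adjusted p = 0.0362), with the floor of 3 counts over the group. The first call ended without YAP1-MAMLD1-dR3R1 replicate 1, 2 or 3 or naive replicate 3 (adjusted p up to 0.0829) and the second ended without YAP1-MAMLD1-dR3R1 replicate 1, 2 or 3, YAP1-FAM118B replicate 1 or 2 or naive replicate 1 (adjusted p up to 0.0878). Adamts16 and Adamts18 passed no test, and Adamts18 had 17.8, 0.387 and 0 CPM in YAP1-MAMLD1-dR3R1 tumours.

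The TIMPs rose with the proteases in part. Timp1, an inducible inhibitor of most secreted MMPs, had 159, 29.2 and 21.3 CPM in YAP1-MAMLD1-dR3R1 tumours, 204, 40.8 and 208 CPM in YAP1-FAM118B tumours and 10.8, 12 and 3.11 CPM in YAP1-TFE3 tumours, against 0.287, 0.251 and 0.088 CPM in naive cortex. Tumour and naive libraries did not overlap, with 15 counts in naive cortex in all. It rose in YAP1-MAMLD1-dR3R1 (log2 fold change 8.34 ± 1.23, adjusted p = 0.00027), YAP1-FAM118B (9.45 ± 1.27, adjusted p = 0.000441) and YAP1-TFE3 tumours (5.32 ± 1.14, adjusted p = 0.00204). In YAP1-TFE3 tumours it was lower than in YAP1-MAMLD1-dR3R1 (-3.01 ± 0.90, adjusted p = 0.0232) and YAP1-FAM118B tumours (-4.13 ± 0.94, adjusted p = 0.00486), and the call against YAP1-MAMLD1-dR3R1 ended without YAP1-MAMLD1-dR3R1 replicate 1 or YAP1-TFE3 replicate 1 or 3 (adjusted p up to 0.113).

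Timp3, which binds to the matrix and also inhibits ADAM17 and aggrecanases, had 2249, 1736 and 1807 CPM in YAP1-MAMLD1-dR3R1 tumours, 1081, 841 and 1694 CPM in YAP1-FAM118B tumours and 804, 755 and 648 CPM in YAP1-TFE3 tumours, against 123, 142 and 208 CPM in naive cortex. The 4 groups did not overlap, in the order YAP1-MAMLD1-dR3R1, YAP1-FAM118B, YAP1-TFE3 and naive from high to low. Timp3 rose in YAP1-MAMLD1-dR3R1 (log2 fold change 3.61 ± 0.31, adjusted p = 1.5e-05), YAP1-FAM118B (2.94 ± 0.30, adjusted p = 9.87e-05) and YAP1-TFE3 tumours (2.22 ± 0.29, adjusted p = 9.39e-05) and was lower in YAP1-TFE3 than in YAP1-MAMLD1-dR3R1 tumours (-1.39 ± 0.28, adjusted p = 0.00378). The neuronal gene Syn3, whose exons share 21.3% of the Timp3 exon bases on the opposite strand, had 5.37 to 46.3 CPM in tumours, against 52.9 to 55.1 CPM in naive cortex.

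Timp2, the partner of Mmp14 in the activation of Mmp2, had 993, 794 and 919.7 CPM in YAP1-MAMLD1-dR3R1 tumours, 466, 405 and 582 CPM in YAP1-FAM118B tumours and 1229, 1355 and 722 CPM in YAP1-TFE3 tumours, against 384, 419.9 and 521 CPM in naive cortex. The YAP1-FAM118B libraries overlapped the naive ones and lay below those of the other fusions. Timp2 rose in YAP1-MAMLD1-dR3R1 (log2 fold change 1.03 ± 0.25, adjusted p = 0.00484) and YAP1-TFE3 tumours (1.32 ± 0.25, adjusted p = 0.000946) and missed the threshold in YAP1-FAM118B tumours (0.13 ± 0.24, adjusted p = 0.698). It was lower in YAP1-FAM118B than in YAP1-MAMLD1-dR3R1 tumours (-0.90 ± 0.25, adjusted p = 0.0276) and higher in YAP1-TFE3 than in YAP1-FAM118B tumours (1.19 ± 0.25, adjusted p = 0.0032). For Timp2 the call of YAP1-FAM118B against YAP1-MAMLD1-dR3R1 ended without YAP1-MAMLD1-dR3R1 replicate 1, 2 or 3, YAP1-FAM118B replicate 1 or 2, YAP1-TFE3 replicate 1 or naive replicate 1 (adjusted p up to 0.119), and that of YAP1-TFE3 against YAP1-FAM118B ended without YAP1-TFE3 replicate 2 (adjusted p = 0.0594).

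Timp4, known from heart and brain, had 32.5, 33.9 and 34.9 CPM in YAP1-MAMLD1-dR3R1 tumours, 13.4, 19.6 and 12.6 CPM in YAP1-FAM118B tumours and 11.7, 6.96 and 6.83 CPM in YAP1-TFE3 tumours, against 24.1, 25.5 and 30.1 CPM in naive cortex. The 4 groups did not overlap, in the order YAP1-MAMLD1-dR3R1, naive, YAP1-FAM118B and YAP1-TFE3 from high to low. It fell in YAP1-FAM118B (log2 fold change -0.80 ± 0.23, adjusted p = 0.0276) and YAP1-TFE3 tumours (-1.65 ± 0.24, adjusted p = 0.000186), and in YAP1-MAMLD1-dR3R1 tumours missed the threshold (0.35 ± 0.23, adjusted p = 0.216). It was lower than in YAP1-MAMLD1-dR3R1 tumours both in YAP1-FAM118B (-1.15 ± 0.24, adjusted p = 0.011) and in YAP1-TFE3 tumours (-1.99 ± 0.24, adjusted p = 0.000212), and lower in YAP1-TFE3 than in YAP1-FAM118B tumours (-0.84 ± 0.24, adjusted p = 0.0138). The fall in YAP1-FAM118B tumours ended without YAP1-FAM118B replicate 1 or 3 or naive replicate 2 or 3 (adjusted p up to 0.109), and the call of YAP1-TFE3 against YAP1-FAM118B ended without YAP1-FAM118B replicate 2 (adjusted p = 0.0547). Without YAP1-TFE3 replicate 1 the last value was -1.37.

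**Figure D5:**
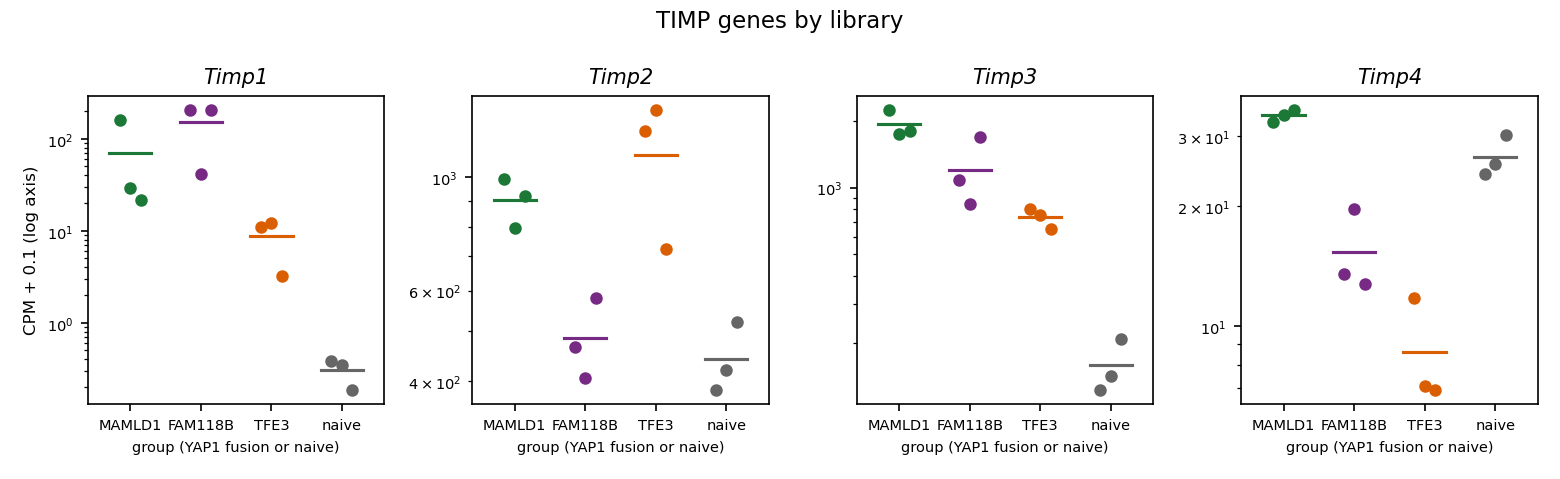
Levels of the 4 TIMP genes, as CPM + 0.1 on a log axis that differs between panels, with 1 point per library, groups named by the fusion partner of YAP1, and a bar at the group mean. Timp1 and Timp3 lie above naive cortex in every tumour library, while Timp4 lies below it in the YAP1-FAM118B and YAP1-TFE3 libraries.

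Genes that activate or hold back these proteases also changed, on lists drawn up from general knowledge with earlier results of these data known. In the plasminogen system, which activates several MMP precursors, 7 of 9 tested genes rose in YAP1-MAMLD1-dR3R1 tumours, 7 in YAP1-FAM118B and 6 in YAP1-TFE3 tumours, where 1 fell, beside 34.4%, 21.3% and 40.6% of all genes that rose and 30% that fell in YAP1-TFE3 tumours. Anxa2, a plasminogen receptor, had 528, 365 and 468 CPM in YAP1-MAMLD1-dR3R1 tumours, 605, 343 and 794 CPM in YAP1-FAM118B tumours and 502, 519.6 and 538 CPM in YAP1-TFE3 tumours, against 8.38, 11.8 and 14 CPM in naive cortex. Tumour and naive libraries did not overlap. Anxa2 rose in YAP1-MAMLD1-dR3R1 (log2 fold change 5.32 ± 0.35, adjusted p = 5.09e-06), YAP1-FAM118B (5.67 ± 0.35, adjusted p = 1.26e-05) and YAP1-TFE3 tumours (5.51 ± 0.35, adjusted p = 1.43e-06). Its partner S100a10 rose by 2.86 ± 0.27, 3.31 ± 0.27 and 2.25 ± 0.26 on the log2 scale (adjusted p = 2.2e-05, 3.34e-05 and 4.57e-05). Plau, urokinase, had 73.6, 55.6 and 48 CPM in YAP1-MAMLD1-dR3R1 tumours, 68.4, 30.5 and 51.8 CPM in YAP1-FAM118B tumours and 99.7, 132 and 347 CPM in YAP1-TFE3 tumours, against 3.69, 2.05 and 1.98 CPM in naive cortex. The YAP1-TFE3 libraries lay above those of the other fusions. Plau rose by 4.52 ± 0.55, 4.28 ± 0.54 and 6.22 ± 0.59 (adjusted p = 8.8e-05, 0.000323 and 1.34e-05). Serpine2, an inhibitor of urokinase and thrombin, fell in YAP1-TFE3 tumours (-1.72 ± 0.29, adjusted p = 0.000493). The medians of the 9 were 4.52, 4.28 and 2.9.

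Of 10 other activators and regulators, 7 rose in YAP1-MAMLD1-dR3R1 and 4 in YAP1-FAM118B tumours, while 5 rose and 2 fell in YAP1-TFE3 tumours, with medians of 2.34, 1.62 and 2.58. The shares of all genes that rose were 34.4%, 21.3% and 40.6%, and 30% fell in YAP1-TFE3 tumours, where the list's shares were near these. Bsg, basigin, a membrane protein known as an inducer of MMPs, had 444, 372 and 499.9 CPM in YAP1-MAMLD1-dR3R1 tumours, 563, 457 and 563 CPM in YAP1-FAM118B tumours and 12042, 9060.5 and 7924 CPM in YAP1-TFE3 tumours, against 349, 363 and 408 CPM in naive cortex. All YAP1-TFE3 libraries lay far above all others, and Bsg rose in YAP1-TFE3 tumours (log2 fold change 4.70 ± 0.24, adjusted p = 5.01e-07) but missed the threshold in YAP1-MAMLD1-dR3R1 (0.23 ± 0.21, adjusted p = 0.347) and YAP1-FAM118B tumours (0.50 ± 0.21, adjusted p = 0.0965). Cd44, the hyaluronan receptor that docks Mmp9 and Mmp14, rose in YAP1-MAMLD1-dR3R1 (log2 fold change 5.26 ± 0.33, adjusted p = 4.19e-06), YAP1-FAM118B (4.79 ± 0.32, adjusted p = 1.51e-05) and YAP1-TFE3 tumours (5.49 ± 0.33, adjusted p = 1.07e-06). Furin, the convertase that activates Mmp11, Mmp14 and ADAMTS precursors, rose in YAP1-MAMLD1-dR3R1 (log2 fold change 2.56 ± 0.23, adjusted p = 1.79e-05), YAP1-FAM118B (2.22 ± 0.23, adjusted p = 9.46e-05) and YAP1-TFE3 tumours (2.24 ± 0.23, adjusted p = 1.88e-05). In YAP1-TFE3 tumours Lrp1, an endocytic receptor for several of these proteases, fell (-1.16 ± 0.24, adjusted p = 0.0015), as did the convertase Pcsk5 (-3.16 ± 0.95, adjusted p = 0.0131).

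Of 7 ADAM proteases, all 7 rose in YAP1-MAMLD1-dR3R1 tumours and 6 each in YAP1-FAM118B and YAP1-TFE3 tumours, with medians of 1.52, 1.49 and 2.24, beside 34.4%, 21.3% and 40.6% of all genes that rose. Adam17, the sheddase of TNF that Timp3 inhibits, had 146, 183 and 202 CPM in YAP1-MAMLD1-dR3R1 tumours, 90.7, 72 and 102 CPM in YAP1-FAM118B tumours and 87.3, 95.1 and 134 CPM in YAP1-TFE3 tumours, against 19.8, 18.4 and 24.4 CPM in naive cortex. It rose by 3.08 ± 0.22 in YAP1-MAMLD1-dR3R1 tumours, 2.08 ± 0.21 in YAP1-FAM118B tumours and 2.33 ± 0.22 in YAP1-TFE3 tumours on the log2 scale (adjusted p = 6.74e-06, 0.000105 and 1.18e-05). Adam8 rose by 5.22 ± 0.72, 5.28 ± 0.72 and 6.07 ± 0.74 (adjusted p = 0.000183, 0.000496 and 6.19e-05). Adam10, the sheddase of Notch, rose by 1.52 ± 0.19, 0.61 ± 0.18 and 1.11 ± 0.19 (adjusted p = 9.82e-05, 0.0316 and 0.000446).

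ADAMTS-like proteins share the ADAMTS domains but have no protease. Of 6, 4 rose in YAP1-MAMLD1-dR3R1 and 3 in YAP1-FAM118B tumours, while 4 rose and 1 fell in YAP1-TFE3 tumours, with medians of 2.05, 1.83 and 2.77. Of all genes 34.4%, 21.3% and 40.6% rose, and 30% fell in YAP1-TFE3 tumours. Adamtsl1 rose in YAP1-MAMLD1-dR3R1 (log2 fold change 2.34 ± 0.36, adjusted p = 0.000374), YAP1-FAM118B (2.58 ± 0.37, adjusted p = 0.00061) and YAP1-TFE3 tumours (3.97 ± 0.39, adjusted p = 1.57e-05), and so did Adamtsl4 (1.84 ± 0.46, 2.31 ± 0.46 and 3.51 ± 0.49, adjusted p = 0.00567, 0.00461 and 0.000131). Adamtsl5 rose in YAP1-TFE3 tumours (log2 fold change 3.97 ± 0.59, adjusted p = 0.000212), while Adamtsl2 fell there (-1.46 ± 0.41, adjusted p = 0.00921).

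Of 9 proteoglycan substrates and their link proteins, 7 fell and 1 rose in YAP1-TFE3 tumours, with a median of -2.46, beside 30% and 40.6% of all genes. In the same contrast 7 of 8 neuron markers and 8 of 8 oligodendrocyte markers fell, with medians of -4.25 and -4.19, and their part in this was not tested. In YAP1-MAMLD1-dR3R1 tumours 3 of the 9 rose and 1 fell (median -0.28), beside 34.4% and 28.8% of all genes. In YAP1-FAM118B tumours edgeR called 0 of the 9 (median -0.72), with 2 lower at an unadjusted p under 0.05 and 2 lower in DESeq2. Bcan, brevican, a proteoglycan of the brain, had 118, 209 and 205 CPM in YAP1-MAMLD1-dR3R1 tumours, 142, 168 and 81.2 CPM in YAP1-FAM118B tumours and 14.1, 41.9 and 24 CPM in YAP1-TFE3 tumours, against 212, 229 and 204 CPM in naive cortex. The YAP1-TFE3 libraries lay below all others, and Bcan fell in YAP1-TFE3 tumours (log2 fold change -3.01 ± 0.42, adjusted p = 0.000136). Hapln4, a link protein of perineuronal nets, had 17.1, 13 and 4.17 CPM in YAP1-MAMLD1-dR3R1 tumours, 68.2, 52.2 and 63.7 CPM in YAP1-FAM118B tumours and 21.7, 36 and 21.4 CPM in YAP1-TFE3 tumours, against 142, 114 and 140.1 CPM in naive cortex. All tumour libraries lay below the naive ones, with those of YAP1-MAMLD1-dR3R1 lowest. Hapln4 fell in YAP1-MAMLD1-dR3R1 (log2 fold change -3.53 ± 0.45, adjusted p = 0.000114) and YAP1-TFE3 tumours (-2.33 ± 0.43, adjusted p = 0.000769). Hapln3 had 1.2, 2.42 and 1.82 CPM in YAP1-MAMLD1-dR3R1 tumours, 1.4, 1.3 and 0.83 CPM in YAP1-FAM118B tumours and 34.2, 25.2 and 14.5 CPM in YAP1-TFE3 tumours, against 0.903, 0.796 and 0.704 CPM in naive cortex. The YAP1-TFE3 libraries lay above those of every other group. Hapln3 rose in YAP1-MAMLD1-dR3R1 (log2 fold change 1.17 ± 0.38, adjusted p = 0.0203) and YAP1-TFE3 tumours (4.93 ± 0.42, adjusted p = 6.87e-06).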

How the data were processed

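The authors deposited raw read counts per gene symbol for each of the 12 libraries. Per the submitters' processing notes, they were made with HTSeq on mm10. The aligner, annotation, versions and strand setting were not given in the sources used here. Reads of genes that overlap on opposite strands may therefore not be told apart. Each file lists 24421 symbols. Genes were kept by filterByExpr (edgeR 4.0.16, R 4.3.3, minimum count 10), leaving 16364, and scaled by TMM. CPM are counts per 1000000 of the library size over genes kept times the TMM factor. All 12 libraries entered 1 quasi-likelihood fit with 6 contrasts, Benjamini-Hochberg adjustment over all genes kept and SE taken as the absolute log2 fold change over the root of F. The fit was also run on simulated counts with 1 spread for all genes, set below that estimated from these libraries. That run cannot show how the fit performs at the spread of these libraries. Depth was 19850220 to 24760814 counts, and intervals and floors of 3 counts cover counting error only. The members and gene lists were chosen with earlier results of these data known. Values in every library are given for members called in at least 1 contrast with a group mean of at least 5 CPM, and Adamts17 and Adamts18 were added after their values were seen. From other lists up to 3 called genes with the smallest adjusted p against naive are named, and up to 2 called against the majority. Alternatives were RLE, upper-quartile and library-size scaling, other filters, a robust dispersion, a replicate block, a 2-fold test, DESeq2 1.42.0 and fits without some libraries.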

Additional observations from a re-analysis of the deposited data

Results flagged for a closer look

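In 3 ADAMTS genes the change against naive passed the test in opposite directions in a pair of fusions, and the difference between the fusions passed it as well. Adamts2 was lower in YAP1-TFE3 than in YAP1-MAMLD1-dR3R1 tumours by a log2 fold change of -4.67 and lower than in YAP1-FAM118B tumours by -5.12. Adamts20 differed by -5.29 between YAP1-TFE3 and YAP1-MAMLD1-dR3R1 tumours. Adamts4 differed by -2.32 between YAP1-TFE3 and YAP1-FAM118B tumours. In each pair 1 of the 2 calls against naive was lost without some libraries. The rise of Adamts2 in YAP1-MAMLD1-dR3R1 tumours ended without YAP1-MAMLD1-dR3R1 replicate 3 or naive replicate 1 or 2 (adjusted p up to 0.0748), and its rise in YAP1-FAM118B tumours ended without YAP1-FAM118B replicate 1 or 3 or naive replicate 1 or 2 (adjusted p up to 0.0878). The rise of Adamts20 in YAP1-MAMLD1-dR3R1 tumours ended without YAP1-MAMLD1-dR3R1 replicate 3 or naive replicate 1, 2 or 3 (adjusted p up to 0.129). The fall of Adamts4 in YAP1-TFE3 tumours ended without YAP1-FAM118B replicate 1, 2 or 3, YAP1-TFE3 replicate 1 or 3 or naive replicate 3 (adjusted p up to 0.187).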

How the results depend on the processing

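Of 137 member calls over the 6 contrasts, 100 were kept without each single library in turn, 37 ended without at least 1 of them, and 0 reversed under any alternative. RLE or upper-quartile factors kept 135 each, library size alone 134, no filter 132, a robust dispersion 136, DESeq2 137 and the 2-fold test 82. A filter of 1 CPM in 3 libraries kept 128 of 132 calls with a value, and fits on the compared groups alone 120 of 132. Leaving out both libraries with Xist and Ddx3y counts kept 119. Other scalings moved the median log2 fold change of all genes by over 0.1 in contrasts of YAP1-TFE3 alone: against naive by -0.152 (RLE), -0.121 (upper quartile) and -0.192 (library size), against YAP1-MAMLD1-dR3R1 by -0.142 (upper quartile) and -0.193 (library size), and against YAP1-FAM118B by -0.215 (library size).

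Counts that moved by over 1.5 times were these, and the cause was not tested. For YAP1-TFE3 against YAP1-FAM118B the higher calls numbered 2 with library size alone, without a filter and with the filter of 1 CPM, and 1 without both Xist and Ddx3y libraries. For YAP1-MAMLD1-dR3R1 against naive the lower calls numbered 3 with the filter of 1 CPM and 2 in the 2-fold test. For YAP1-FAM118B against YAP1-MAMLD1-dR3R1 the higher calls numbered 5 on the compared groups alone, the lower calls 10 in DESeq2, and without both Xist and Ddx3y libraries 4 were higher and 2 lower. The 2-fold test (glmTreat in edgeR) gave 1 higher and 7 lower for YAP1-TFE3 against YAP1-MAMLD1-dR3R1 and 10 lower for YAP1-TFE3 against YAP1-FAM118B. It gave 0 lower for YAP1-FAM118B against naive, 0 higher and 0 lower for YAP1-FAM118B against YAP1-MAMLD1-dR3R1, and 0 higher for YAP1-TFE3 against YAP1-FAM118B, where 0, 6, 4 and 1 had an unadjusted p under 0.05 and DESeq2 called 3, 9, 10 and 5.

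Leaving out each library gave 20 to 26 higher and 3 to 6 lower calls in YAP1-MAMLD1-dR3R1 tumours against naive, 21 to 25 and 0 to 3 in YAP1-FAM118B, and 18 to 21 and 8 to 10 in YAP1-TFE3 tumours, with 0 from edgeR as detailed above (DESeq2 on all libraries called 3). Between fusions it gave 4 to 8 higher and 1 to 8 lower for YAP1-FAM118B against YAP1-MAMLD1-dR3R1, 1 to 4 and 14 to 17 for YAP1-TFE3 against YAP1-MAMLD1-dR3R1, and 1 to 4 and 15 to 20 for YAP1-TFE3 against YAP1-FAM118B.

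The labels state no pairing by replicate number. Over the 18 same-numbered pairs of libraries, deviations from the group means correlated between -0.111 and 0.324 across genes, with a median of 0.0382, and 4 were over 0.1. Over the 36 differently numbered pairs they correlated between -0.424 and 0.36, with a median of -0.0183, and 7 were over 0.1. With so few libraries a group, these values cannot exclude a batch shared by equal numbers. With the replicate number as a block 126 of the 137 calls were kept, and the lower calls of YAP1-MAMLD1-dR3R1 against naive numbered 3. Members with few counts, such as Mmp10 in YAP1-MAMLD1-dR3R1 tumours, Adamts13 and Adamts19, are limited by depth.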

Other observations

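Summed endothelial markers were 248 to 442 CPM in YAP1-MAMLD1-dR3R1 tumours, 118 to 203 CPM in YAP1-FAM118B tumours and 152 to 279 CPM in YAP1-TFE3 tumours, against 107 to 115 CPM in naive cortex. Astrocyte markers summed to 4365 to 7039 CPM in YAP1-MAMLD1-dR3R1 tumours, 2314 to 4697 CPM in YAP1-FAM118B tumours and 1413 to 3383 CPM in YAP1-TFE3 tumours, against 4414 to 5465 CPM in naive cortex. Oligodendrocyte markers summed to 1881 to 4314 CPM in YAP1-MAMLD1-dR3R1 tumours, 2058 to 4752 CPM in YAP1-FAM118B tumours and 581 to 926 CPM in YAP1-TFE3 tumours, against 5712 to 11456 CPM in naive cortex, and choroid plexus markers to 3.19 to 2288 CPM in YAP1-MAMLD1-dR3R1 tumours, 62.9 to 110.2 CPM in YAP1-FAM118B tumours and 4.13 to 1006 CPM in YAP1-TFE3 tumours, against 11.1 to 1709 CPM in naive cortex. Adamts16, which passed no test, had 6.68, 0.822 and 0 CPM in YAP1-MAMLD1-dR3R1 tumours, 4.89, 0.966 and 11.3 CPM in YAP1-FAM118B tumours and 1.4, 1.02 and 0.836 CPM in YAP1-TFE3 tumours, against 2.05, 3.48 and 3.04 CPM in naive cortex. Of the MMPs with too few counts for the test, Mmp8 was at least 15.3-fold higher in YAP1-TFE3 tumours and Mmp27 at least 10.8-fold higher in YAP1-FAM118B tumours than in naive cortex, against a floor of 3 counts over the naive group and with no test. Each bound rests mostly on replicate 1: Mmp8 had 36, 0 and 6 counts in YAP1-TFE3 and Mmp27 had 25, 0 and 7 counts in YAP1-FAM118B tumours, so replicate 2 was at 0 like naive cortex.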
